A study of Homo sapiens with 40 samples.

Results

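Border-associated macrophage markers are transcripts used to tell the macrophages of the meninges, perivascular spaces and choroid plexus from microglia of the brain parenchyma. The 10 markers MRC1, CD163, STAB1, LYVE1, FOLR2, SIGLEC1, CD209, F13A1, SELENOP and MAF were taken by name and matched by Ensembl identifier in a table of 60504 genes. All 10 were found, and 8 of them passed the filter on low values that 14855 genes passed, which asked for at least 1 TPM (a transcript abundance scaled for transcript length and for the library total) in at least 7 libraries. F13A1 reached 1 TPM in 2 libraries and CD209 in 1, so both are described by their values without a test. LYVE1 reached 1 TPM in 11 libraries, 5 of them TREM2-KO libraries. It would not have passed without the TREM2-KO group, so its place among markers higher in that group is not read as support.

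The cells were microglia-like cells (hMGLs) grown from the human embryonic stem cell line H9 (WA09). Cells of 7 genotypes were profiled by RNA-seq: unedited WT (7 libraries), TREM2-KO (8), TREM2-R47H (7), SORL1-KO (7), SORL1-A528T (7), CD33 SNP (2) and INPP5D SNP (2). Each edit was made with CRISPR/Cas9 on both alleles. The protocol names R744X and A528T as the SORL1 edits, so R744X is taken to be the line labelled SORL1-KO, and INPP5D SNP cells carry the A allele on both copies where unedited H9 cells are heterozygous. All groups shared one culture protocol: blood progenitors collected at day 11 were fed for 28 days with M-CSF at 25 ng/mL, TGF-beta 1 at 50 ng/mL and IL-34 at 100 ng/mL, and in the final 3 days also with CX3CL1 and CD200, each at 100 ng/mL. The labels give neither the number of clones behind a line nor what a replicate number stands for. The p-values therefore measure the spread between libraries, which may be technical.

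Border-associated macrophages take up proteins, haemoglobin, glycans and lipoproteins at the interface of blood, cerebrospinal fluid and brain, and many of their markers are scavenger or endocytic receptors. They share the receptor CSF1R and the transcription factor PU.1 with microglia, while parenchymal microglia are known for higher P2RY12 and SALL1. The same receptors also mark other tissue-resident macrophages and can be raised in cultured macrophages, so their transcripts alone do not place a cell at a brain border.

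The labels were checked on the edited genes and on cell markers. TREM2 lay between 24.6 and 46.5 TPM in the 8 TREM2-KO libraries and between 295 and 585 TPM in the WT libraries. SORL1 lay between 12.6 and 21.5 TPM in SORL1-KO and between 18.6 and 43.2 TPM in WT libraries, so these ranges overlapped. CSF1R group means ran from 686 to 863 TPM and P2RY12 from 35.4 to 49.0 TPM, whereas SALL1 did not exceed 0.47 TPM in any library. Of 14 endothelial and lymphatic markers, which could accompany LYVE1 and STAB1, 4 passed the filter. PECAM1, which macrophages also express, had group means from 144 to 280 TPM. Those of PDPN ran from 5.42 to 28.5 TPM, of EGFL7 from 5.62 to 7.22 TPM and of TIE1 from 0.945 to 2.71 TPM. Among those that did not pass, CDH5 and CLDN5 reached at most 0.23 and 0.14 TPM, but KDR reached 6.98 TPM and PROX1 2.94 TPM. PECAM1 was called lower in TREM2-R47H (-0.70, limma adjusted p = 0.0421) and PDPN in TREM2-KO against WT (-1.80, limma adjusted p = 4.1e-05). In TREM2-KO against TREM2-R47H, where 21.3% of all genes were called, PDPN (-1.34) and TIE1 (-0.70) were lower and PECAM1 (0.82) higher. Of 8 platelet markers, which could accompany F13A1, ITGA2B alone passed, with 5.48 TPM at most, and PF4 reached at most 0.20 TPM. Of 8 hepatocyte markers, which could accompany SELENOP, SERPINA1 alone passed, a gene that monocytes and macrophages also express. Its group means ran from 32.5 to 129 TPM and it was called lower in TREM2-R47H than WT (-1.07, limma adjusted p = 0.0356), while TTR was listed at 0 in every library and ALB reached at most 0.23 TPM. The part of these markers in the results was not tested. The libraries TREM2-KO 8, SORL1-KO 7 and SORL1-A528T 7 stood apart: their median correlation with their own group was 0.933 to 0.946, against 0.950 to 0.980 for the other libraries of the 5 large groups. Changes against WT and variance shares that move without them are also given without them, and the genes closest to each marker were ranked with them.

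The promoters of STAB1, CD163 and MAF are shown first because STAB1 and CD163 passed the test in TREM2-R47H cells and MAF is the transcription factor among the markers. The RefSeq promoter table (GRCh38.p14) held 6 of the 10 markers, STAB1, CD163, MAF, SELENOP, F13A1 and CD209. It held no entry for MRC1, FOLR2, LYVE1 and SIGLEC1. The sequences run 5′ to 3′ on the gene strand, begin 250 bases before the RefSeq start and stop where a GENCODE exon of the gene begins. Capitals mark the letters GAGGAA, a core bound by PU.1, and TGCTGA, a core bound by MAF proteins, or their reverse complements TTCCTC and TCAGCA.
STAB1 promoter, chr3:52495088-52495337, plus strand: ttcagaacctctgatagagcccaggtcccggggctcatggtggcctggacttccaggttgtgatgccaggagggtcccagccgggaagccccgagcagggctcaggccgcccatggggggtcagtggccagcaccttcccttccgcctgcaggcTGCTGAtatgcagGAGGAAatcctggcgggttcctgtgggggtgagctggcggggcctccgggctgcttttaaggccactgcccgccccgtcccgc
CD163 promoter, chr12:7503894-7504027, minus strand: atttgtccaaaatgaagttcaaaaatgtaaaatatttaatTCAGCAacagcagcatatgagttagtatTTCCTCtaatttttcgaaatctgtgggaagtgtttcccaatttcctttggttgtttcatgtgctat
MAF promoter, chr16:79600738-79600987, minus strand: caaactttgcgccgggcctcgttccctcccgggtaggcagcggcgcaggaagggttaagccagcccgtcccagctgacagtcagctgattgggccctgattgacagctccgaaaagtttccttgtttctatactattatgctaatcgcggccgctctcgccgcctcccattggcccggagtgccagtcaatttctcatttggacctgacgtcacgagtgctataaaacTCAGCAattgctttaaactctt
STAB1 held GAGGAA and TGCTGA on the gene strand, starting 83 and 96 bases before the RefSeq start. CD163 held both on the opposite strand, 182 and 210 bases before the start. MAF held TGCTGA on the opposite strand, 22 bases before the start, and no GAGGAA in the stretch shown. The stretches outside exons of CD209 (220 bases) and SELENOP (63 bases) held neither motif, and only 7 bases of F13A1 lay outside exons. Over the full 250 bases before the start, GAGGAA was present on either strand in 23.6% of 35116 promoters and TGCTGA in 14.0%, which for CD163 sets a stretch of 134 bases against longer ones. These matches describe letters and are not evidence of binding.

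In GENCODE 29 (GRCh38) all are protein-coding genes: MRC1 at chr10:17809344-17911170, CD163 at chr12:7470813-7503893, FOLR2 at chr11:72216601-72221950, STAB1 at chr3:52495338-52524495, LYVE1 at chr11:10556966-10611689, F13A1 at chr6:6144085-6321013, SIGLEC1 at chr20:3686970-3707128, CD209 at chr19:7739994-7747564, MAF at chr16:79585843-79600714 and SELENOP at chr5:42799880-42887392. FOLR2 and LYVE1 share a chromosome but lie far apart on it. The level of each marker, scaled for length, differed by orders of magnitude. STAB1 was the most abundant, with a mean of 361 TPM over the 40 libraries, above 97.7% of the genes that passed the filter. MAF (113 TPM) and CD163 (99.8 TPM) lay above 91.8% and 90.6% of these genes. SELENOP averaged 62.7, MRC1 17.3, FOLR2 16.5 and SIGLEC1 4.38 TPM, while LYVE1 averaged 0.77 TPM.

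**Figure D1:**
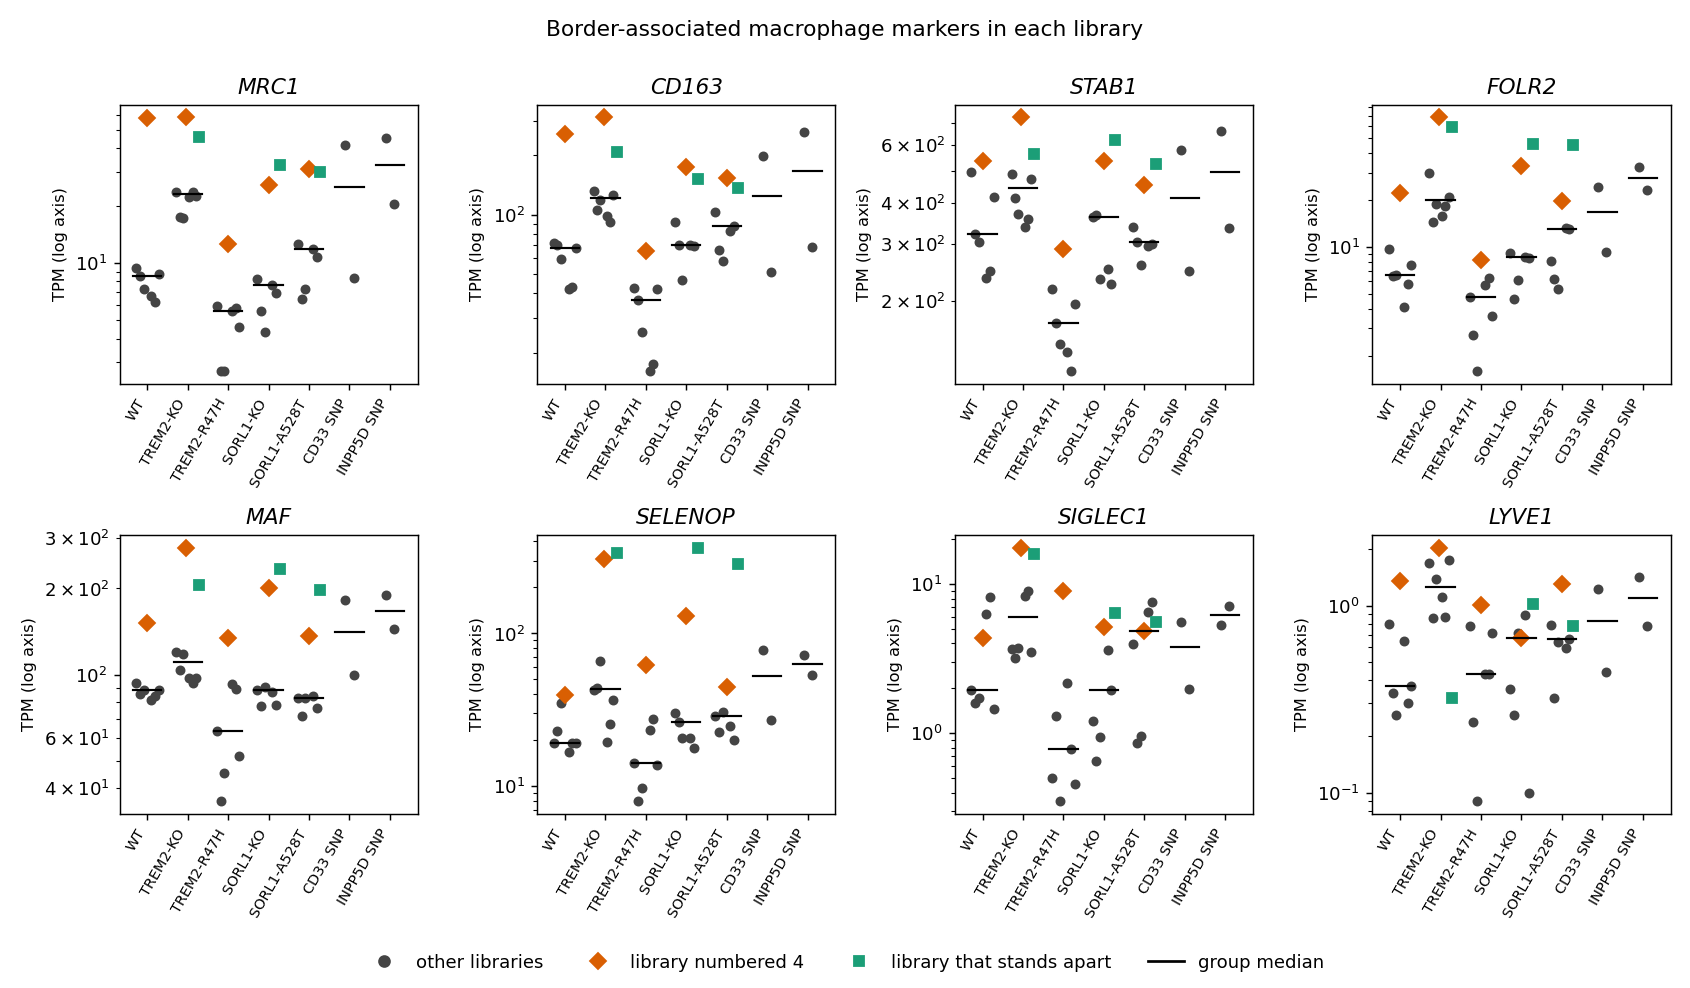
TPM of the 8 markers that passed the filter (log axis, 1 panel per gene) in each of the 40 libraries, by genotype, with the group median as a line; diamonds are libraries numbered 4 and squares the 3 libraries that stand apart. MRC1 in WT is 57.7 TPM in library 4 and at most 9.44 TPM in the other 6, and TREM2-R47H has the lowest median for every marker shown but LYVE1.

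MRC1 encodes the mannose receptor CD206, which takes up glycoproteins. In WT libraries its lowest, median and highest levels were 6.20, 8.58 and 57.7 TPM. They were 17.2, 23.0 and 58.3 TPM in TREM2-KO and 2.70, 5.57 and 12.6 TPM in TREM2-R47H. TREM2-KO libraries lay above all WT libraries but WT 4, and every TREM2-KO library lay above every TREM2-R47H library. SORL1-KO libraries ran from 4.33 to 32.7 TPM with a median of 7.63, and SORL1-A528T libraries from 6.44 to 31.3 TPM with a median of 11.8. The CD33 SNP libraries had 41.9 and 8.32 TPM and the INPP5D SNP libraries 45.2 and 20.5 TPM. The paralogue MRC2, a collagen receptor, was called lower in TREM2-R47H than in WT (log2 fold change -0.62, SE 0.15, limma adjusted p = 0.00588).

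CD163 encodes the scavenger receptor for haemoglobin bound to haptoglobin. Its lowest, median and highest levels were 42.1, 67.9 and 256 TPM in WT. They were 92.3, 122 and 312 TPM in TREM2-KO and 16.1, 36.7 and 65.2 TPM in TREM2-R47H. All TREM2-KO libraries lay above the WT median, all TREM2-R47H libraries lay below it, and TREM2-KO did not overlap TREM2-R47H. SORL1-KO had a median of 70.6 TPM (46.6 to 174) and SORL1-A528T of 87.4 TPM (58.2 to 153). The CD33 SNP libraries had 199 and 51.4 TPM and the INPP5D SNP libraries 264 and 68.8 TPM, so in both pairs library 1 lay far above library 2.

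STAB1 encodes stabilin-1, a scavenger receptor for modified lipoproteins and matrix proteins. Its levels were 236, 321 and 535 TPM (lowest, median, highest) in WT. They were 336, 442 and 728 TPM in TREM2-KO and 123, 172 and 290 TPM in TREM2-R47H. TREM2-R47H overlapped WT at the top of its range through its library 4, and did not overlap TREM2-KO. SORL1-KO (227 to 623 TPM, median 361) and SORL1-A528T (257 to 523 TPM, median 303) overlapped WT. The CD33 SNP libraries had 577 and 247 TPM and the INPP5D SNP libraries 659 and 336 TPM.

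LYVE1, the hyaluronan receptor of lymphatic endothelium and of perivascular macrophages, was low in every group. Its levels were 0.26, 0.37 and 1.35 TPM in WT, 0.32, 1.25 and 2.04 TPM in TREM2-KO and 0.09, 0.43 and 1.01 TPM in TREM2-R47H. TREM2-KO was the highest group by median, although its lowest library, TREM2-KO 8, lay under the WT median. SORL1-KO ran from 0.10 to 1.02 TPM and SORL1-A528T from 0.32 to 1.31 TPM. The 2 SNP groups lay between 0.44 and 1.42 TPM.

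FOLR2 encodes folate receptor beta of macrophages. Its levels were 4.13, 6.64 and 22.3 TPM in WT. They were 14.5, 20.0 and 68.2 TPM in TREM2-KO and 1.59, 4.75 and 8.29 TPM in TREM2-R47H. Only library 4 of WT lay inside the TREM2-KO range, and no TREM2-R47H library did. SORL1-KO ran from 4.64 to 45.9 TPM (median 8.62) and SORL1-A528T from 5.40 to 45.4 TPM (median 13.04), each with its highest value in the library that stands apart. The INPP5D SNP libraries had 32.8 and 23.1 TPM, both above the highest WT library, and the CD33 SNP libraries had 24.3 and 9.34 TPM.

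SIGLEC1 encodes sialoadhesin (CD169), a receptor for sialic acid that interferon is known to raise. Its levels were 1.45, 1.95 and 8.23 TPM in WT, 3.18, 6.05 and 17.6 TPM in TREM2-KO and 0.35, 0.79 and 9.04 TPM in TREM2-R47H. All TREM2-KO libraries lay above the WT median, but all these ranges overlapped, and the highest TREM2-R47H library was number 4. The medians were 1.94 TPM in SORL1-KO and 4.83 TPM in SORL1-A528T. CD209, the lectin DC-SIGN, had medians of 0.39 TPM in WT, 0.44 TPM in TREM2-KO and 0.03 TPM in TREM2-R47H, where it was listed at 0 in 2 libraries, and 1.71 TPM at most, in TREM2-KO 8.

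F13A1 encodes the A subunit of coagulation factor XIII, a transglutaminase, and its group medians lay between 0.02 TPM in TREM2-R47H and 0.34 TPM in INPP5D SNP. The libraries above 1 TPM were TREM2-KO 8 with 6.78 TPM and TREM2-KO 4 with 1.63 TPM. SELENOP encodes selenoprotein P, a secreted selenium carrier, and the labels list selenite in the culture medium of every group. Its levels were 16.7, 19.3 and 39.8 TPM in WT, 19.4, 43.3 and 337 TPM in TREM2-KO and 7.98, 14.2 and 62.2 TPM in TREM2-R47H. TREM2-KO and TREM2-R47H overlapped here, and the 3 libraries that stand apart held 337 TPM (TREM2-KO 8), 365 TPM (SORL1-KO 7) and 286 TPM (SORL1-A528T 7). The next highest SORL1-KO library had 130 TPM and the next highest SORL1-A528T library 44.9 TPM.

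MAF encodes the transcription factor c-Maf of macrophages. Its levels were 81.3, 88.2 and 152 TPM in WT, 93.2, 111 and 278 TPM in TREM2-KO and 36.0, 63.6 and 134 TPM in TREM2-R47H. All 8 TREM2-KO libraries exceeded the WT median, while 4 of the 7 TREM2-R47H libraries lay below it.

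By group median TREM2-R47H was the lowest of the 7 groups for 9 of the 10 markers; LYVE1 was lowest in WT. INPP5D SNP had the highest median for 8 of the 10, and TREM2-KO for the other 2, LYVE1 and CD209. With 2 libraries the INPP5D SNP median is their mean, so it gives a high library more weight than in the large groups. By mean TREM2-KO lay above INPP5D SNP for FOLR2 (30.7 against 28.0 TPM), SIGLEC1 (8.10 against 6.235), SELENOP (110 against 62.9) and F13A1 (1.22 against 0.34). INPP5D SNP stayed above TREM2-KO by mean for MRC1, CD163, STAB1 and MAF. In the 60 pairs of groups that neighbour each other in the orders by median the library ranges overlapped in all 60. Neighbouring groups were thus not separated beyond their spread.

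Loss of TREM2 was compared with WT by limma on log2(TPM + 1), with p-values adjusted by Benjamini and Hochberg over all 14855 genes. FOLR2 was the 1 marker of 8 called higher in TREM2-KO cells: log2 fold change 1.61, SE 0.43, 3.05-fold on the TPM + 1 scale, adjusted p = 0.0459. In this comparison 1.61% of all genes were called in either direction and 0.283% higher. The other 7 markers had log2 fold changes above 0, from 0.37 for STAB1 to 1.39 for SELENOP, with adjusted p from 0.154 to 0.644. Unadjusted p was under 0.05 for 6 of the 8. The median over the 8 was 0.92, against -0.0025 over all genes tested. None of the 8 separated TREM2-KO from WT completely. In 0.155% of all genes every TREM2-KO library lay above every WT library. The FOLR2 call was lost without any one of 10 of the 15 libraries, namely each WT library but WT 4, and TREM2-KO 1, 4, 7 and 8, with an adjusted p of at most 0.114, and in 4 of 16 other settings (adjusted p at most 0.129). In bulk RNA, more cells of a kind and more RNA per cell cannot be told apart.

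**Figure D2:**
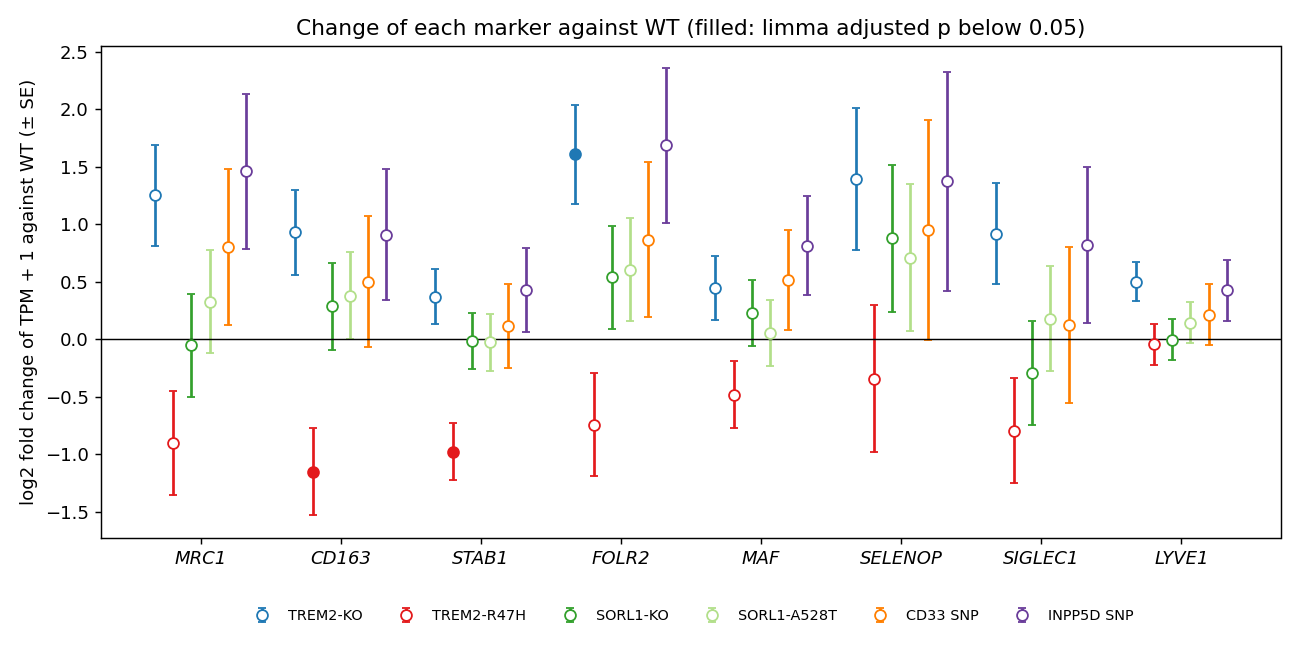
Log2 fold change of TPM + 1 against WT with its standard error for the 8 markers in 6 edited lines; filled points have a limma adjusted p below 0.05. FOLR2 in TREM2-KO (1.61), STAB1 in TREM2-R47H (-0.98) and CD163 in TREM2-R47H (-1.15) are filled, and all 8 TREM2-R47H points lie below 0.

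Deviations of same-numbered TREM2-KO and WT libraries were correlated at each of the 7 numbers (0.11 to 0.31). The same-numbered library was the best match at only 3 of the 7, so pairs were not established. The comparison was repeated with the number as a block in these 2 groups, which drops TREM2-KO 8. In that fit 5 of the 8 markers were called higher, where 1.18% of all genes were: FOLR2 (1.44, SE 0.08, adjusted p = 6.1e-05), CD163 (0.84, SE 0.10, adjusted p = 0.00243), MRC1 (1.14, SE 0.18, adjusted p = 0.00941), STAB1 (0.33, SE 0.07, adjusted p = 0.0279) and LYVE1 (0.60, SE 0.13, adjusted p = 0.0373). SIGLEC1 (0.75, adjusted p = 0.053), MAF (0.35, adjusted p = 0.0557) and SELENOP (1.05, adjusted p = 0.0748) were not called. Taken number by number, TREM2-KO lay above WT at all 7 numbers for 7 of the 8 markers, a pattern that 3.35% of all genes showed. STAB1 was the exception, with 6 of 7. LYVE1, counted here and among the 5 called, would not have passed the filter without the TREM2-KO libraries. FOLR2 differed by 1.04 to 1.72 on the log2 scale, while MRC1 ranged from 0.01 at number 4 to 1.77. Without the libraries numbered 4, FOLR2 (1.65, adjusted p = 0.0425) and MRC1 (1.48, adjusted p = 0.0319) were called. Without the 3 libraries that stand apart, FOLR2 (1.44, adjusted p = 0.0316) and LYVE1 (0.60, adjusted p = 0.049) were called.

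In TREM2-R47H cells 2 of the 8 markers were called lower than in WT. STAB1 fell by 0.98 on the log2 scale (SE 0.24, adjusted p = 0.00643), from a mean of 365 ± 119 TPM (SD, n = 7) to 184 ± 57.2 TPM (SD, n = 7). CD163 fell by 1.15 (SE 0.38, adjusted p = 0.0417), from 87.2 ± 75.5 to 35.1 ± 17.2 TPM (SD, n = 7 each). Here 11.4% of all genes were called in either direction and 8.77% lower, and the count of 2 in 8 is read against that share. Of the 1693 called genes 390 were higher, and with median-ratio scaling 603 of 1432 were. The other 6 had log2 fold changes below 0, from -0.04 for LYVE1 to -0.90 for MRC1, with adjusted p from 0.218 to 0.923. The median over the 8 was -0.77, against -0.06 over all genes. No marker separated the 2 groups completely. In 3.51% of all genes every TREM2-R47H library lay below every WT library. The STAB1 call was kept without each of the 14 libraries in turn (adjusted p at most 0.0202), whereas CD163 was lost without any one of 8 of them (WT 1, 2, 4 and 7, TREM2-R47H 2, 3, 5 and 6), and without WT 4 its change was -0.85 (adjusted p = 0.133). In 7 of 16 other settings CD163 was lost as well (adjusted p at most 0.0921).

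With the number as a block (correlations of 0.14 to 0.28 at the 7 numbers) 3 of the 8 markers were called lower in TREM2-R47H, where 13.4% of all genes were. The same-numbered library was the best match at 4 of the 7 numbers. The called markers were STAB1 (-0.98, SE 0.05, adjusted p = 1.0e-05), CD163 (-1.15, SE 0.14, adjusted p = 0.000572) and MRC1 (-0.90, SE 0.22, adjusted p = 0.0214). MRC1, CD163 and STAB1 lay below WT at all 7 numbers, as 13.3% of all genes did. SIGLEC1 did so at 6 numbers, FOLR2, MAF and LYVE1 at 5 and SELENOP at 4. STAB1 had the narrowest spread, from -1.18 to -0.75 on the log2 scale, and SIGLEC1 the widest, from -2.37 to 0.91.

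**Figure D3:**
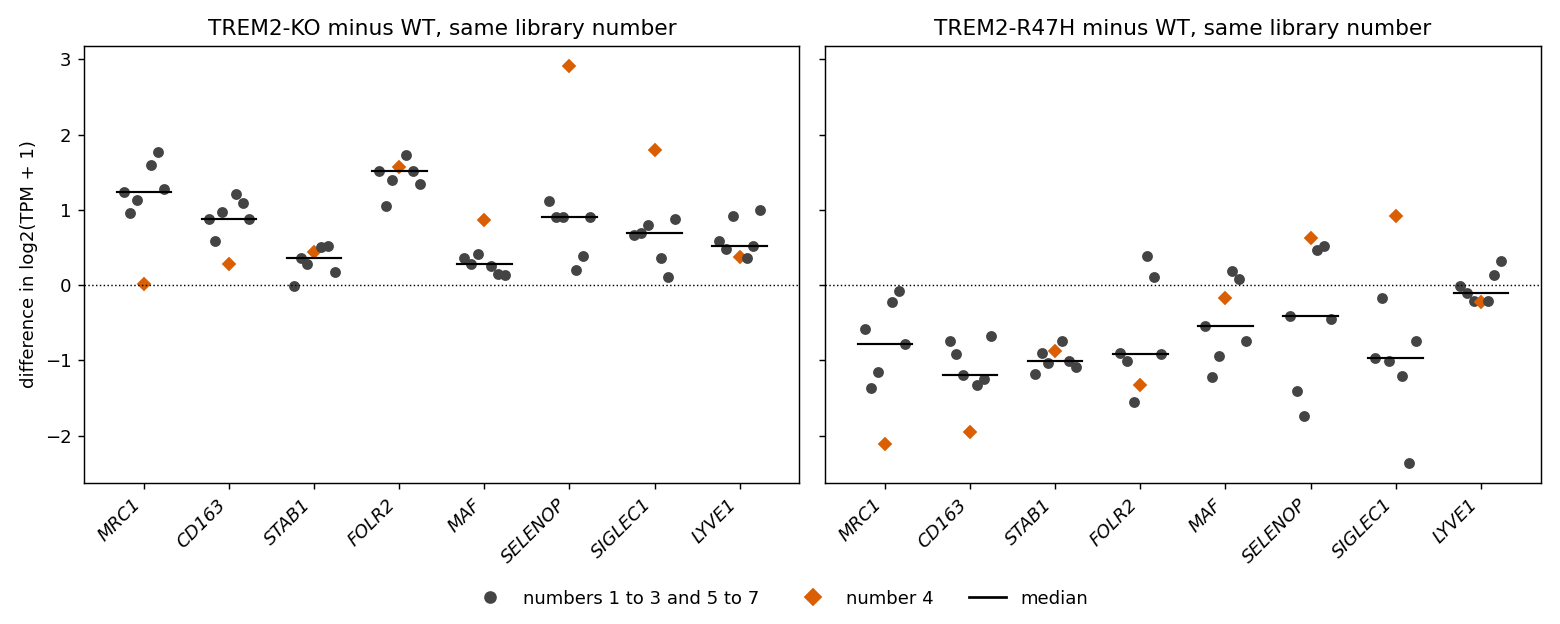
Difference in log2(TPM + 1) between the edited line and WT at the same library number, for numbers 1 to 7, with the median as a line; number 4 is a diamond. FOLR2 in TREM2-KO lies between 1.04 and 1.72, and STAB1 in TREM2-R47H between -1.18 and -0.75.

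The 2 TREM2 edits were also compared directly, since a call against WT in one line and none in the other does not test their difference. All 8 markers had a higher level in TREM2-KO than TREM2-R47H cells at an adjusted p below the threshold of 0.05. LYVE1 is among them, although it would not have passed the filter without the TREM2-KO libraries. In this comparison 21.3% of all genes were called in either direction and 14.7% higher (2180 of 3157 called genes, and 1462 of 2861 with median-ratio scaling). The median difference over the 8 was 1.72, against 0.06 over all genes. Log2 differences ran from 0.54 for LYVE1 (SE 0.17, adjusted p = 0.020) to 2.35 for FOLR2 (SE 0.43, adjusted p = 0.000113). STAB1 differed by 1.35 (SE 0.24, adjusted p = 5.9e-05), SIGLEC1 by 1.71 (SE 0.44, adjusted p = 0.00434), MAF by 0.93 (SE 0.28, adjusted p = 0.0143) and SELENOP by 1.73 (SE 0.62, adjusted p = 0.0401). For STAB1, FOLR2, CD163 and MRC1, 4 of the 8, every TREM2-KO library lay above every TREM2-R47H library, as for 3.9% of all genes. TREM2-KO lay above TREM2-R47H at all 7 numbers for 7 of the 8, as 15.7% of all genes did, and SELENOP at 5. The SELENOP call was lost in 6 of 16 other settings (adjusted p at most 0.0919), among them the fit without the libraries numbered 4 (1.70, adjusted p = 0.0522), and without any one of TREM2-KO 3, 4 and 8 and TREM2-R47H 1, 2, 3 and 7 (adjusted p at most 0.11). LYVE1 was lost without TREM2-KO 4, TREM2-R47H 2 or TREM2-R47H 3 (adjusted p at most 0.0627) and with the 2 groups alone (adjusted p = 0.0525), and MAF without TREM2-R47H 2 (adjusted p = 0.0511).

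No marker was called in the 2 SORL1 lines by limma. Against WT, 1.09% of all genes were called in SORL1-KO and 0.0471% in SORL1-A528T, and no marker had an unadjusted p under 0.05 in either. SORL1-KO log2 fold changes ran from -0.30 for SIGLEC1 to 0.88 for SELENOP (SE 0.64). SORL1-A528T changes ran from -0.03 for STAB1 to 0.71 for SELENOP (SE 0.64). Without the 3 libraries that stand apart SELENOP was 0.37 (SE 0.48) in SORL1-KO and 0.24 (SE 0.48) in SORL1-A528T, FOLR2 was 0.23 in place of 0.54 and 0.31 in place of 0.60, and no marker was called against WT (adjusted p at least 0.805). Between SORL1-KO and SORL1-A528T none of the 8 was called and none had an unadjusted p under 0.05, against 0.0942% of all genes called, and differences ran from -0.48 for SIGLEC1 to 0.17 for MAF. The SELENOP mean of 87.2 ± 129 TPM in SORL1-KO (SD, n = 7) rested on library 7.

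Neither SNP line had a called marker in limma, and each had only 2 libraries. In CD33 SNP cells, where 0.0% of all genes were called and no marker had an unadjusted p under 0.05, all 8 log2 fold changes were above 0, from 0.11 to 0.95. In INPP5D SNP cells, where 0.0337% of all genes were called, all 8 were above 0 as well, from 0.43 for LYVE1 and STAB1 to 1.69 for FOLR2 (SE 0.67). FOLR2 and MRC1 had an unadjusted p under 0.05 there. Without the libraries numbered 4 and the 3 that stand apart, 4 markers were called higher in INPP5D SNP: MRC1 (1.85, SE 0.36, adjusted p = 0.00158), FOLR2 (1.92, SE 0.36, adjusted p = 0.00129), MAF (0.93, SE 0.22, adjusted p = 0.00745) and SELENOP (adjusted p = 0.014). In that fit 1728 genes in all were called, against 5 with all libraries, and 3.5% of all genes were called higher. Libraries were left out of the other groups but of neither SNP group. INPP5D SNP 1, the higher of its pair for every tested marker but SIGLEC1, was kept. The groups were thus trimmed unequally, by a choice made after the high libraries had been seen. Both SNP groups hold numbers 1 and 2 only.

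Both genotype and library number held large shares of the spread of the markers. Over the 5 large groups and numbers 1 to 7, genotype held 53.1% of the log2 variance of CD163, 52.6% of STAB1, 44.8% of FOLR2, 43.2% of LYVE1 and 41.3% of MRC1. It held 28.3% for SIGLEC1, 23.3% for MAF and 19.0% for SELENOP. The number held between 34.2% (FOLR2) and 44.9% (SIGLEC1 and MAF). The medians over all genes that passed the filter were 15.2% for genotype and 29.9% for number. All 8 markers thus lay above both medians. Over numbers 1 to 6, which hold none of the 3 libraries that stand apart, genotype held 22.4% (SELENOP) to 54.3% (STAB1) and the number 39.0% (FOLR2) to 58.4% (MAF), against medians of 16.9% and 33.2%.

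**Figure D4:**
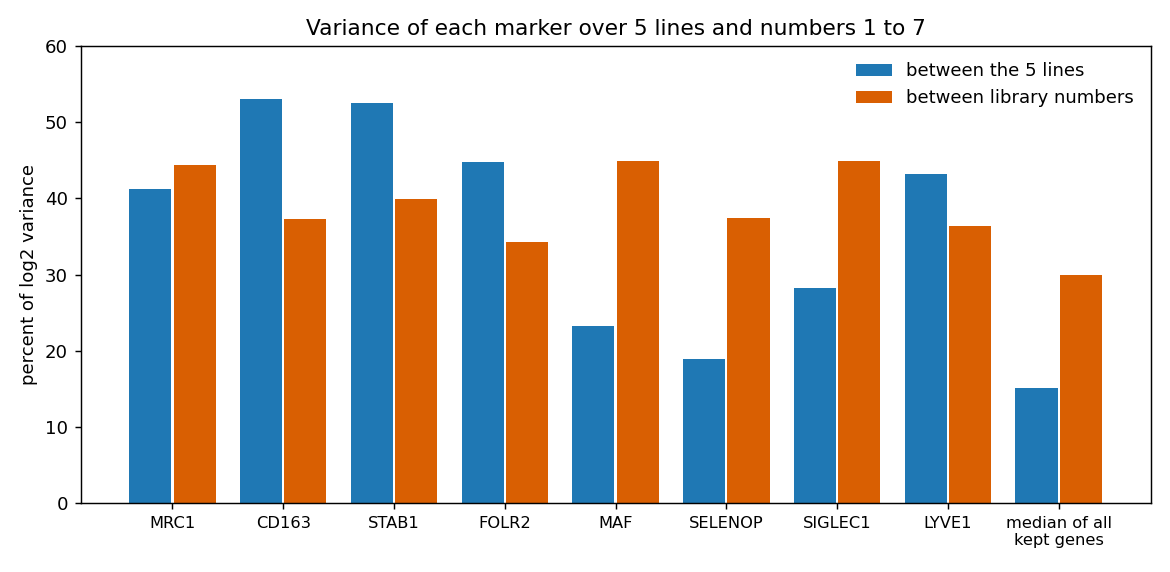
Percent of the log2 variance of each marker that lies between the 5 large groups and between library numbers 1 to 7, beside the medians over all genes that passed the filter. Genotype holds most for CD163 (53.1%) and least for SELENOP (19.0%), and number holds 34.2% to 44.9% for every marker.

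Library 4 held the highest level of most markers in most groups. MRC1, CD163, STAB1, FOLR2, MAF and SELENOP, 6 of the 8 markers, were higher in library 4 than in every other library of its group in all 5 large groups, with the 3 libraries that stand apart left out, and 4.16% of all genes shared that pattern. The ratio of library 4 to the median of the other libraries was 2.47 to 7.28 for MRC1, 1.85 to 4.01 for CD163, 1.99 to 3.96 for FOLR2, 1.52 to 2.14 for STAB1, 1.65 to 2.77 for MAF and 1.81 to 7.70 for SELENOP. LYVE1 was highest at number 4 in 4 of the 5 groups and SIGLEC1 in 3. The 10 monocyte markers moved with it: their summed level in library 4 was the highest of its group in all 5, for example 3633 TPM in WT against a WT median of 494 TPM, and 469 TPM in TREM2-R47H against a median of 190 TPM. S100A9, a leading monocyte gene, had group means from 36.9 to 1006 TPM, and none of the 10 was at 0 in its highest group. The homeostatic microglia markers differed less at number 4, with a median log2 difference of 0.19 to 0.54 over the 5 groups, against 0.77 to 1.47 for the 8 border markers and 0.79 to 2.22 for the monocyte markers. The part of the monocyte markers in these levels was not tested.

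Markers of other cell types also differed between genotypes. Of all genes, 1.61% were called in either direction in TREM2-KO, 11.4% in TREM2-R47H and 1.09% in SORL1-KO against WT. Between TREM2-KO and TREM2-R47H 21.3% were called. Of the 17 homeostatic microglia markers that passed the filter, 1 was higher in TREM2-KO against WT, 2 were higher and 1 lower in TREM2-R47H against WT, and 7 were higher and 2 lower in TREM2-KO against TREM2-R47H. GPR34 of this list was called higher in SORL1-KO than in WT (0.87, limma adjusted p = 5.8e-05). It was also called higher in SORL1-KO than in SORL1-A528T (0.74, limma adjusted p = 0.00114), where 0.0942% of all genes were called. Of the 7 dendritic cell markers that passed, 3 fell in TREM2-R47H, 1 fell in SORL1-KO and 4 were higher in TREM2-KO against TREM2-R47H. Of the 10 monocyte markers, 3 fell in TREM2-R47H against WT (S100A9, S100A12 and S100A8), and 7 had a higher level in TREM2-KO than TREM2-R47H cells. Their summed level ranged from 149 to 469 TPM in TREM2-R47H, from 308 to 3633 TPM in WT and from 339 to 2391 TPM in TREM2-KO. The 10 stromal markers, led by COL3A1, summed to between 7.84 and 3041 TPM in WT, between 6.42 and 229 TPM in TREM2-KO, between 8.28 and 136 TPM in TREM2-R47H and between 505 and 1976 TPM in INPP5D SNP. They summed to between 6.89 and 116.5 TPM in SORL1-KO, 8.29 and 85.2 TPM in SORL1-A528T and 41.9 and 52.25 TPM in CD33 SNP. Of the 9 that passed the filter, 3 were called lower than WT in TREM2-KO, 4 in TREM2-R47H and 3 in SORL1-KO. Their median log2 fold change was -2.48, -2.30 and -2.60 there, -2.58 in SORL1-A528T and -2.06 in CD33 SNP. It was 1.75 in INPP5D SNP. With a stromal score as a covariate, FOLR2 in TREM2-KO was 1.78 (adjusted p = 0.0605) and SIGLEC1 was called (1.65, adjusted p = 0.0478), while in TREM2-R47H STAB1 stayed called and CD163 did not (-1.29, adjusted p = 0.0665). Between TREM2-KO and TREM2-R47H all 8 markers were called higher in that fit, where 15.7% of all genes were. The part of these cell markers in the border markers' levels was not tested beyond this covariate.

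Deviations of the markers from their group means were positively correlated over the 40 libraries, described here without a test because the libraries share numbers and depth. Pearson's r was highest for SELENOP with MAF (0.93), MAF with FOLR2 (0.91), MRC1 with FOLR2 (0.91) and STAB1 with CD163 (0.90), and lowest for SIGLEC1 with LYVE1 (0.28). The median over the 28 pairs was 0.63. Without number 4 and the 3 libraries that stand apart it was 0.42 over 32 libraries, with a range of -0.26 to 0.86.

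**Figure D5:**
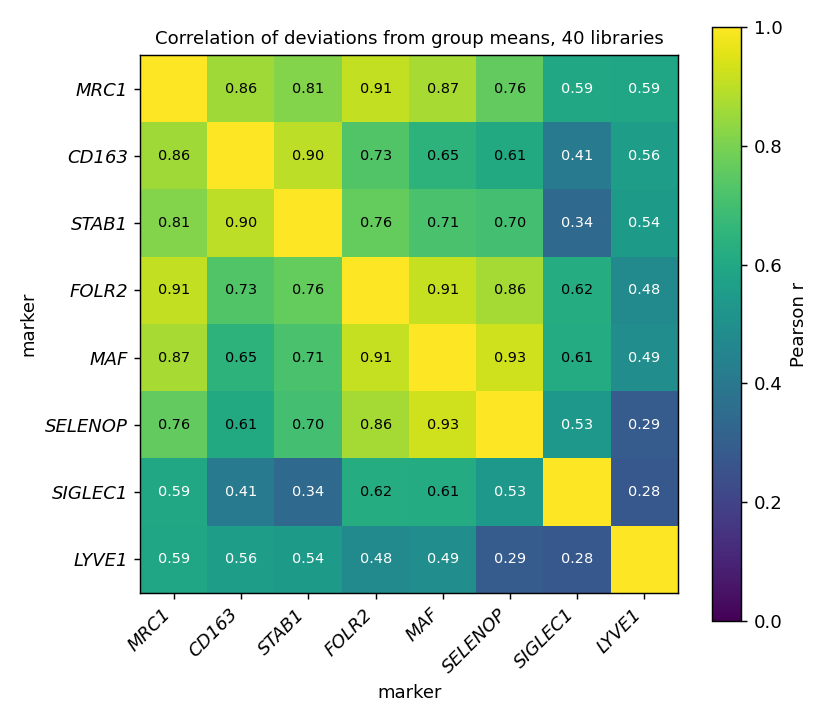
Pearson correlation between the deviations of 8 markers from their group means in log2(TPM + 1) over 40 libraries. MAF, FOLR2, MRC1 and SELENOP correlate at 0.76 to 0.93 with each other, and SIGLEC1 and LYVE1 have the lowest values, down to 0.28.

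The genes whose deviations were most like those of each marker were ranked over the same 40 libraries. CD14 was closest to MRC1 (r = 0.96), with LINC01094, FCGR3A, LAIR1 and LRP1 next. ATP6V1B2 was closest to CD163 (0.94), C1QA to FOLR2 (0.96), TNFRSF1B to STAB1 (0.96), TNFRSF1A to MAF (0.96), EVI2A to SELENOP (0.97) and GABRA3 to LYVE1 (0.76). The 5 closest to SIGLEC1 were IFITM3 (0.94), IRF7, IRF9, TNFSF10 and HERC5.

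A list of 25 further genes of border-associated macrophages passed the filter in full. Its counts are read beside the shares of all genes called. Those were 0.283% higher in TREM2-KO, 8.77% lower in TREM2-R47H and 1.09% in either direction in SORL1-KO against WT. In TREM2-KO against TREM2-R47H 14.7% were called higher. In TREM2-KO against WT 2 were higher: LILRB5, an inhibitory receptor (1.34, limma adjusted p = 0.000136), and IGFBP4, a binding protein of insulin-like growth factors (1.09, adjusted p = 0.0372). In TREM2-R47H against WT 8 were lower and 1 was higher. CLEC10A, a galactose-type lectin, fell from 91.9 ± 24.6 to 19.5 ± 11.5 TPM (SD, n = 7 each, limma adjusted p = 2.5e-07), and IGFBP4 (-1.84), CD28 (-1.61) and the secreted ribonuclease RNASE1 (58.7 to 13.4 TPM) fell as well. The 1 higher gene was TIMD4, a phosphatidylserine receptor, which was named after its value was seen. Its level was low, with means of 0.43 TPM in WT and 1.18 TPM in TREM2-R47H. CLEC10A also fell in SORL1-KO (-1.53, limma adjusted p = 0.00165), the 1 gene of the list called there. Between TREM2-KO and TREM2-R47H 12 were higher and 1 lower. The list median was 0.28 in TREM2-KO and -0.58 in TREM2-R47H against WT, where the medians over all genes were -0.0025 and -0.06. CLEC10A is also a dendritic cell marker, and IRF4 and FCER1A of the dendritic list fell with it in TREM2-R47H.

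Regulators of the alternative macrophage programme (20 of 21 passed the filter) gave 1 lower gene in TREM2-KO, and 2 higher and 5 lower in TREM2-R47H. Of all genes, 1.61% were called in either direction in TREM2-KO and 11.4% in TREM2-R47H against WT. The list medians were -0.02 and -0.24, against -0.0025 and -0.06 over all genes. PPARG, a nuclear receptor of lipid metabolism, moved in opposite directions: it fell from 5.29 ± 0.81 TPM in WT (SD, n = 7) to 1.87 ± 1.00 in TREM2-KO (SD, n = 8, limma adjusted p = 0.000136) and rose to 12.5 ± 2.31 in TREM2-R47H (SD, n = 7, limma adjusted p = 0.00015). Those signs are the reverse of the signs of the 8 border markers, of which only 1 was called in TREM2-KO and 2 in TREM2-R47H. A relation between PPARG and the markers was not tested. IRF4, a factor of the IL-4 response, fell in TREM2-R47H (-2.08), as did STAT6 (-0.25) and SOCS3 (-1.17).

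The pathways of single markers were followed in short lists, whose counts are read beside the share of all genes called in either direction. That share was 11.4% in TREM2-R47H against WT, 21.3% in TREM2-KO against TREM2-R47H and 0.0337% in INPP5D SNP against WT. For the selenium list the median log2 difference of TREM2-KO against TREM2-R47H was 0.04, against 0.06 over all genes. Of 24 genes of selenoproteins and selenium handling, 1 was higher and 2 were lower in TREM2-R47H, 7 were higher and 2 lower in TREM2-KO against TREM2-R47H, and TXNRD2, a mitochondrial thioredoxin reductase, was lower in INPP5D SNP (-2.81, SE 0.37, limma adjusted p = 5.4e-05). Of 10 genes of haemoglobin and haem clearance, FTL, the ferritin light chain, fell in TREM2-R47H (-0.43), and FTL, the iron exporter SLC40A1 (1.97) and LRP1 (0.63), the receptor of the haem carrier haemopexin, had a higher level in TREM2-KO than TREM2-R47H cells. Of 12 genes of folate uptake and use, SLC46A1, the proton-coupled folate transporter, fell in TREM2-R47H (-0.41), and 2 were higher and 1 was lower when TREM2-KO was set against TREM2-R47H. CD163L1, the paralogue of CD163, differed between TREM2-KO and TREM2-R47H by 2.83 (SE 0.47, limma adjusted p = 2.7e-05), with means of 16.1 ± 15.6 TPM (SD, n = 8) and 0.88 ± 0.55 TPM (SD, n = 7). The lymphatic and sinusoidal paralogue STAB2 and the lectin CLEC4M reached at most 0.31 and 0.03 TPM.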

How the data were processed

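RNA-seq libraries of 40 hMGL samples were analysed. The deposited table holds TPM values per Ensembl gene that the authors made from their reads. The submitters' processing notes name cutadapt 1.18, STAR 2.7 and RSEM 1.3.1; neither build nor annotation is named (not given in the sources used here). TPM keeps no depth: sequencing averaged 45.13 M reads per library (39.2 to 64.6 M) per the labels. Each library summed to between 999999 and 1000001 TPM, with 13208 to 14086 genes at 1 TPM or more.

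From these, values were fitted as log2(TPM + 1) over all 40 libraries with limma 3.58.1 (trend and robust; R 4.3.3), 1 coefficient per genotype, on genes at 1 TPM or more in 7 libraries. A gene was called at a Benjamini-Hochberg adjusted p under 0.05. The script was tested on simulated data. Symbols came from a name table that matched 93.5% of identifiers, and positions from GENCODE 29. The members and lists were chosen with earlier results of these data known.

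The text names the 10 markers in every comparison, up to 4 called genes with the lowest adjusted p per further list and comparison, the paralogues (1 is not reported here), and the 5 genes most like each marker. Same-numbered libraries were taken as possible pairs where every correlation of their deviations from the group means exceeded 0.1. That held for TREM2-KO with WT (from 0.11), TREM2-R47H with WT (from 0.14) and SORL1-KO with SORL1-A528T (from 0.31). This choice rests on the data and not on the labels, and the main fit used no pairs. The same-numbered library was the best match at 3, 4 and 3 of the 7 numbers in these comparisons, so the pairing is uncertain. Alternatives changed the pseudocount, filter, scaling, fitted groups, block, weights and libraries.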

Additional observations from a re-analysis of the deposited data

Results flagged for a closer look

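In 8 of 50 sets of a marker in a group of 7 or 8 libraries, 1 library lay far from the others by Dixon's criterion. Its rate of about 1 set in 20 by chance holds for independent, normally distributed values. These sets are TPM of correlated markers in the same libraries, and the same library recurs among the 8. No rate over all genes was computed, so the 8 are not read against 1 in 20. In WT it was library 4 for MRC1 (57.71 TPM), CD163 (256.08 TPM) and MAF (151.79 TPM). In TREM2-R47H it was library 4 for SIGLEC1 (9.04 TPM) and F13A1 (0.51 TPM). In TREM2-KO it was library 8 for F13A1 (6.78 TPM) and CD209 (1.71 TPM), and in SORL1-A528T library 7 for SELENOP (285.99 TPM).

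The changes of the 2 TREM2 lines against WT differed between these lines when TREM2-KO and TREM2-R47H were tested against each other. The log2 difference was 2.16 for MRC1, 2.08 for CD163, 2.35 for FOLR2, 1.35 for STAB1, 0.54 for LYVE1, 1.71 for SIGLEC1, 0.93 for MAF and 1.73 for SELENOP.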

How the results depend on the processing

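In TREM2-KO against WT, where 1 marker was called, 0 were called with a pseudocount of 5, with no filter on low values and with replicates 5 and 6 averaged, 2 without the 3 libraries that stand apart and 2 without those numbered 4, and 3 with array weights and 3 without both sets of libraries. Leaving out 1 library gave 0 to 2. In TREM2-R47H against WT, where 2 were called, 1 was called with a pseudocount of 5, no filter, median-ratio scaling, quantile normalization, the 2 groups alone, replicates 5 and 6 averaged or a stromal covariate, and 6 with array weights; leaving out 1 library gave 1 to 2. Between TREM2-KO and TREM2-R47H the count was 8 and ranged from 5, without TREM2-R47H 2, to 8 when 1 library was left out. Median-ratio scaling moved the split of all called genes, from 390 higher of 1693 to 603 of 1432 in TREM2-R47H against WT, and from 2180 higher of 3157 to 1462 of 2861 in TREM2-KO against TREM2-R47H. Array weights moved the count of all called genes from 239 to 634 in TREM2-KO, from 1693 to 4096 in TREM2-R47H and from 3157 to 4768 between them; the block in the 2 groups gave 501 and 2728 against WT, and the stromal covariate 981 in TREM2-R47H. The fit of the 2 groups alone gave 159 in TREM2-KO, and leaving out number 4 gave 148. In SORL1-KO the count of 162 ranged from 19, with the stromal covariate, to 735, with the block in all libraries, and in SORL1-A528T that of 7 reached 127 with the block in all libraries. The cause of these shifts was not tested.

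With the replicate number as a block in all libraries, 4 markers were called in TREM2-KO and 3 in INPP5D SNP, which had 0 without it and 4 without the libraries numbered 4 and the 3 that stand apart. That block called 587 and 1567 of all 14855 genes in these comparisons. INPP5D SNP was not taken as paired with WT (correlations of 0.02 and 0.10 at the 2 numbers), and limma with the block in those 2 groups alone called none of the 8 markers (adjusted p at least 0.105, 5 with an unadjusted p under 0.05). With the block in the 2 groups alone, TREM2-KO had 5, also without the 3 libraries. With the block in the 2 groups TREM2-R47H had 3 called and TREM2-KO against TREM2-R47H, where the numbers were not taken as pairs (lowest correlation 0.09), kept 8. The count stayed at 0 markers under every block in the SORL1 and CD33 SNP comparisons. The alternatives without the libraries numbered 4 or those that stand apart were chosen after seeing the data. No direction of a called change reversed in the alternatives run. Leaving out 1 of the 2 libraries of an SNP line assumes that the lone library varies like the other groups, and MRC1 in CD33 SNP then ranged from -0.30 to 1.90. TPM gives no depth, so counting error of LYVE1, CD209 and F13A1 is unknown.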
